A study of Mus musculus with 9 samples.

Results

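The genes examined here make fatty acids and place double bonds in them. They were chosen by symbol, as 10 of the 24061 symbols in the count table: Srebf1, Fasn, Acaca, Acly, Elovl5, Elovl6, Scd1, Scd2, Fads1 and Fads2. RNA was sequenced from BMDMs, which are macrophages derived from bone marrow in culture, in 3 groups of 3 libraries. All groups came from wild-type female C57BL/6J mice aged 8 to 10 weeks, and all cells were differentiated for 7 days and then kept for 1 day without serum. Veh cells received the DMSO vehicle alone. LPS cells received vehicle for 3 hr and then 10 ng/mL LPS, a bacterial agonist of TLR4, for 2 hr. T0+LPS cells received 500 nM of the LXR agonist T0901317 (T0) for 3 hr before the same LPS stimulus, with T0 still present. The replicates were separately differentiated cultures, and whether they came from separate mice is not given in the sources used here. No group received T0 without LPS, so an effect of T0 in resting cells cannot be read from these libraries, and the time at which Veh cells were harvested is not given in the sources used here.

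Cells build saturated fatty acids from citrate. ATP citrate lyase (Acly) releases acetyl-CoA, acetyl-CoA carboxylase (Acaca) turns it into malonyl-CoA, and fatty acid synthase (Fasn) joins these units into palmitate. Elongases then lengthen the chain, stearoyl-CoA desaturases (Scd1, Scd2) make monounsaturated fatty acids, and Fads1 and Fads2 desaturate dietary polyunsaturated chains on the way to arachidonic and related acids. Srebf1 encodes SREBP1, the transcription factor that drives much of this pathway, and it is a textbook target of LXR, as are Scd1 and Fasn.

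Each library held between 13299044 and 16467983 counted reads. Levels are given as CPM, counts brought to a common library size that TMM scaling corrects for composition. TMM factors lay between 1.136 and 1.144 in Veh and between 0.9309 and 0.948 in the LPS and T0+LPS libraries, so the choice of scaling bears on comparisons with Veh. The macrophage markers were abundant. Their summed levels were 27300 to 29600 CPM in Veh, 32800 to 34200 CPM in LPS and 35600 to 37000 CPM in T0+LPS. Lyz2 made up the largest part, with means of 19700, 21400 and 23700 CPM in the same order. The markers did not all move as the sum did. From Veh to LPS, mean Cd14 went from 944 to 3130 CPM and mean Fcgr1 from 127 to 70.8 CPM. Itgam had no reads and only 3 exon bases that its rows do not share. Markers of adipocytes, which are rich in lipogenic enzymes, summed to at most 0.29 CPM in any library, and Adipoq, Cidec and Lep each had at most 3 reads in every library. Plin1, with 56 unshared bases, and the neutrophil marker S100a9, with 3, could not be judged, and Ly6g was not found in the table. The summed levels of the other marker lists were at most 4 CPM for neutrophils, 3.06 CPM for dendritic cells, 0.661 CPM for fibroblasts and 0.277 CPM for lymphocytes. The LXR targets Abca1 and Abcg1, which encode cholesterol efflux transporters, rose 2.77-fold and 4.26-fold in T0+LPS against LPS and mark the libraries labelled T0. As in any bulk sample, fewer expressing cells and less RNA per cell cannot be told apart.

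Of the 10 genes, 9 passed the filter on low counts in all 3 comparisons. Acly did not. Its 2 rows, each 1 RefSeq transcript, share all but 30 of 4427 exon bases. How reads on bases that rows share were counted is not given in the sources used here. Acly held 9 reads over the 9 libraries, and its level is not read here. The other genes each have 1 row. Srebf1, Fasn, Acaca and Acly lie on chromosome 11, and Scd1, Scd2, Fads1 and Fads2 on chromosome 19. On mm10, the build of the deposited coordinates, Scd2 spans 44293676 to 44306862 on the plus strand of chromosome 19 and Scd1 spans 44394450 to 44407709 on the minus strand, with 87587 bases between them. Fads1 (10182888 to 10196872, plus strand) and Fads2 (10064164 to 10101503, minus strand) are neighbours too, with 81384 bases between their transcription starts. Srebf1 spans 60199089 to 60220604 and Fasn 120805958 to 120824547, both on the minus strand of chromosome 11, and Acaca 84195438 to 84401651 on its plus strand. Elovl5 spans 77917365 to 77984519 on the plus strand of chromosome 9 and Elovl6 129532386 to 129638493 on the plus strand of chromosome 3.

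LXR binds as a heterodimer with RXR to direct repeats of a hexamer spaced by 4 bases (DR4), and SREBP proteins bind sterol response elements. RefSeq promoter windows of GRCm38.p6, the assembly that mm10 names, were at hand for 7 of the 10 genes, in 9 windows, and those of Scd1, Scd2 and Fads1 were not. A relaxed DR4, 2 copies of GGTNA with any 5 bases between them, was searched on both strands of the 250 bases before each start. This pattern was written after the windows had been looked at, so setting its matches in them against all windows tests nothing. It occurred in 2 of the 9 windows, the one before the innermost of 3 Srebf1 starts and the one before the Fasn start, and in 0.621% of all 32851 windows. The sequences of these windows are shown because both genes rose with T0, next to that of Elovl5, which rose without such a match as Acaca did, and that of Fads2, which did not pass the test. They are written 5′ to 3′ on the gene's strand, with matches to the relaxed DR4 in capitals.
Srebf1 (chr11:60210472-60210721, minus strand): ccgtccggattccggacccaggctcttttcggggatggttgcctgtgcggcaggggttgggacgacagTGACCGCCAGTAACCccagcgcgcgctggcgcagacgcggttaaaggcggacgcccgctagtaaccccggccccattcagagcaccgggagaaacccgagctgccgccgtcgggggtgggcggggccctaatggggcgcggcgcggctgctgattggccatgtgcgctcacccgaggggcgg
Fasn (chr11:120824548-120824797, minus strand): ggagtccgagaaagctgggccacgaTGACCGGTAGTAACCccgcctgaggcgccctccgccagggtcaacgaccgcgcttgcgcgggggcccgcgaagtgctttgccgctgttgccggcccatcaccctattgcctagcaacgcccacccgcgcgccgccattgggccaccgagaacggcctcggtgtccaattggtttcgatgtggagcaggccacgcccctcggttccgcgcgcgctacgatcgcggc
Elovl5 (chr9:77917115-77917364, plus strand): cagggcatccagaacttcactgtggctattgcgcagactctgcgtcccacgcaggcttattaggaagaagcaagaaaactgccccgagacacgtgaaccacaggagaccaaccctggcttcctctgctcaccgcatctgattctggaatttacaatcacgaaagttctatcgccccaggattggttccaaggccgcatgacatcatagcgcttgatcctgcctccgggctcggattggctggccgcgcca
Fads2 (chr19:10101504-10101753, minus strand): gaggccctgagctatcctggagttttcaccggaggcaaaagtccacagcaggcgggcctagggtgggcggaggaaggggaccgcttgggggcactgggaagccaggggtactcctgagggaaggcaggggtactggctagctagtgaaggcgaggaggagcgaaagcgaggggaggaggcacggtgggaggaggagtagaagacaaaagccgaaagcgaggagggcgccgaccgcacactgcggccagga

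In Srebf1 the match TGACCGCCAGTAACC lies 182 to 168 bases before the start, and in Fasn the match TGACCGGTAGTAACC lies 225 to 211 bases before it, both on the minus strand relative to the gene. A single hexamer AGGTCA was found in the windows of Elovl6 and Acly, and in 14% of all windows. The sterol response element was searched only as the letters TCACNCCAC, which were in none of the 9 windows and in 1.05% of all. Variant forms were not searched, so these windows are not shown to lack such an element. The E-box CACGTG was in the Elovl5 window and in 6.02% of all, and the CCAAT box CCAAT was in 4 of the 9 windows (Elovl5, Fasn and 2 of Srebf1) and in 33.8% of all. In Fasn, 2 of 3 CCAAT matches overlap each other, and no match of the relaxed DR4 overlaps another motif. The Srebf1 start with the match lies 10133 bases from the start of the counted Srebf1 row, whose 19 exons hold only 1 exon, of 152 out of 4299 bases, before it. Reads from either start therefore fall on the same row, and these counts do not tell which start was used. No binding or chromatin data were analysed here, so a match is a description of letters only.

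In T0+LPS against LPS, 6 of the 9 tested genes rose: Scd2, Scd1, Srebf1, Fasn, Acaca and Elovl5. None fell, whether by edgeR's quasi-likelihood test at a Benjamini-Hochberg adjusted p under 0.05, by DESeq2 or by limma-voom, and none did at an unadjusted p under 0.05 in edgeR. Of all 9348 genes tested, 1.35% were called higher, 1.83% lower and 3.18% either way. The groups did not overlap for the same 6 genes, all above LPS, where 9.51% of all genes lay wholly above LPS, 9.62% wholly below and 19.1% either way. The median log2 fold change was 0.66 for the 9 genes and 0.00 for all genes tested. Among the 126 genes called higher, ordered by fold change, Scd2 was number 1, Scd1 2, Srebf1 10, Fasn 20, Acaca 35 and Elovl5 37. All 6 calls held under each of 8 alternative settings and without any single library.

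**Figure D1:**
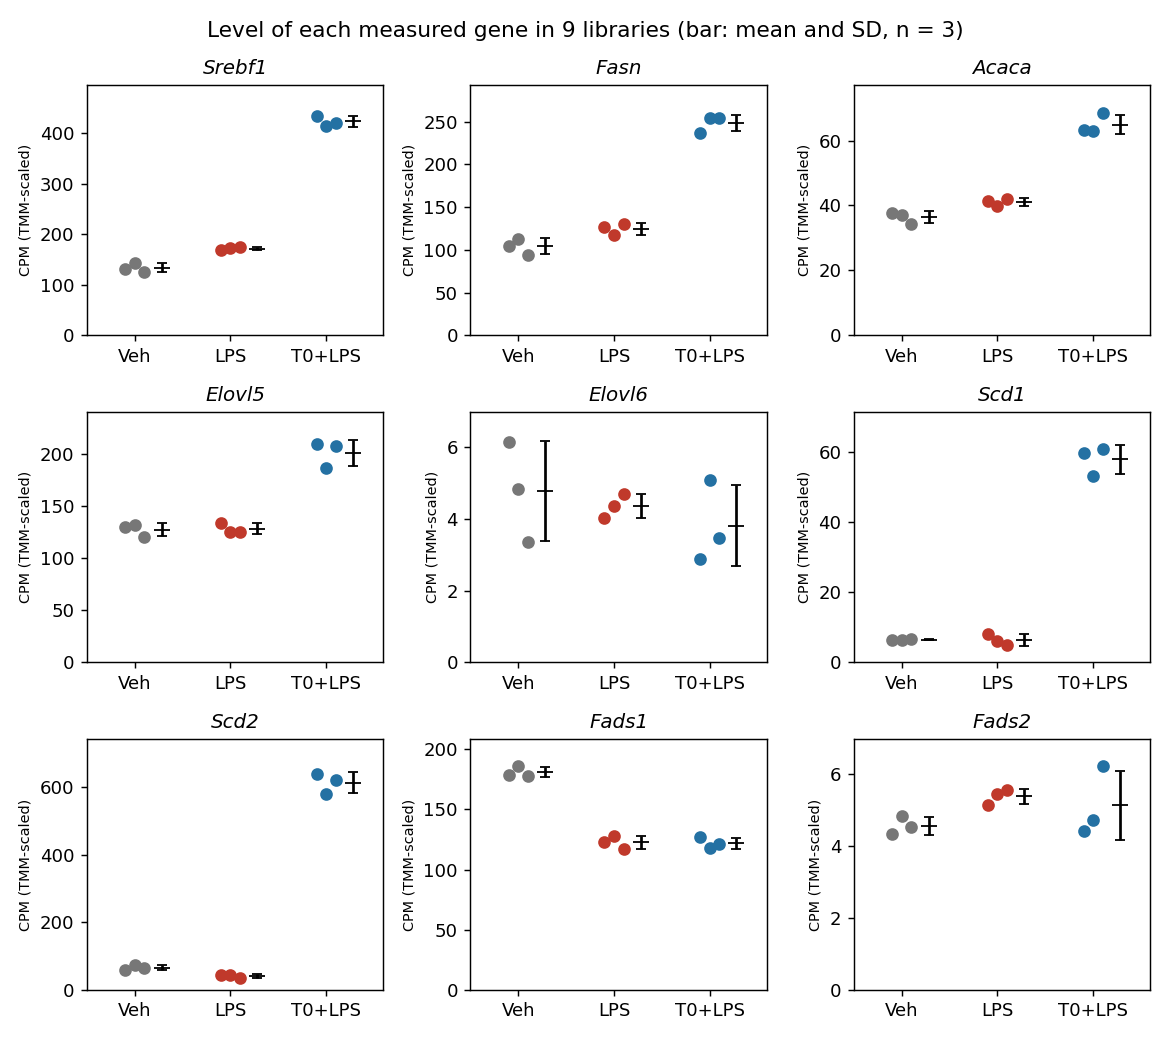
TMM-scaled CPM (linear axes from 0) of the 9 measured genes in each library, with points for the 3 replicates and a bar for mean and SD. T0+LPS libraries stand apart above both other groups for Srebf1, Fasn, Acaca, Elovl5, Scd1 and Scd2, while Fads1 is at 117 to 128 CPM in all 6 LPS-stimulated libraries and at 178 to 186 CPM in Veh.

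Srebf1, the transcription factor, had levels of 132, 144 and 126 CPM in Veh, 168, 172 and 175 CPM in LPS, and 435, 414 and 421 CPM in T0+LPS. The 3 groups formed separate steps with no overlap. With T0 it rose 2.47-fold over LPS (log2 fold change 1.30, standard error 0.05, adjusted p = 4.8e-11 from edgeR). Between LPS and Veh its log2 fold change was 0.36 (adjusted p = 1.1e-05 from edgeR), which was 0.08 and not called when libraries were scaled by their totals alone.

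Fasn, which makes palmitate, had 105, 113 and 94.4 CPM in Veh, 127, 117 and 130 CPM in LPS, and 237, 254 and 254 CPM in T0+LPS. Its level doubled with T0, with a fold of 1.99 over LPS (95% interval 1.85 to 2.14, adjusted p = 1.2e-08 from edgeR). Acaca, which makes malonyl-CoA for Fasn, had 37.8, 37.2 and 34.2 CPM in Veh, 41.4, 39.8 and 42.1 CPM in LPS, and 63.3, 63.0 and 68.4 CPM in T0+LPS. This is the lower of these steps, at 1.58-fold over LPS (95% interval 1.46 to 1.72, adjusted p = 7.1e-06 from edgeR). For both genes LPS alone gave small positive values against Veh, with log2 fold changes of 0.26 for Fasn and 0.18 for Acaca that turned to -0.02 and -0.11 when scaled by library totals.

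The elongases differed. Elovl5, which lengthens polyunsaturated chains, had 130, 132 and 120 CPM in Veh, 134, 125 and 125 CPM in LPS, and 209, 186 and 207 CPM in T0+LPS. The Veh and LPS libraries overlapped, and T0+LPS stood above both, 1.57-fold over LPS (95% interval 1.46 to 1.69, adjusted p = 3e-06 from edgeR). Elovl6, which lengthens palmitate to stearate, was low in every library, with 6.15, 4.83 and 3.36 CPM in Veh, 4.04, 4.37 and 4.71 CPM in LPS, and 2.89, 5.08 and 3.47 CPM in T0+LPS. Its groups overlapped, and the fold of T0+LPS over LPS was 0.876, with a 95% interval of 0.664 to 1.16 that leaves out a rise as large as that of Elovl5. Elovl6 rests on 38 to 115 reads a library, and its spread in Veh and T0+LPS is wide against the difference.

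The stearoyl-CoA desaturases moved most. Scd2 had 58.8, 73.2 and 63.3 CPM in Veh, 43.6, 42.9 and 34.7 CPM in LPS, and 638, 579 and 622 CPM in T0+LPS. LPS libraries lay below Veh, at 0.623 of its level (log2 fold change -0.68, standard error 0.09, adjusted p = 3.9e-06 from edgeR), and T0+LPS libraries lay far above both. The fold over LPS was 15.2 (95% interval 13.7 to 16.8). Scd1 had 6.41, 6.41 and 6.60 CPM in Veh, 8.16, 6.11 and 4.94 CPM in LPS, and 59.6, 53.1 and 60.8 CPM in T0+LPS. Veh and LPS overlapped for Scd1, and T0+LPS was 9.04-fold above LPS (95% interval 7.70 to 10.6).

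With TMM, T0+LPS folds against Veh were 8.78 for Scd1 (95% interval 7.88 to 9.78) and 9.30 for Scd2 (95% interval 8.54 to 10.1). These intervals overlap. Under library totals the log2 fold changes went from 3.13 to 2.87 for Scd1 and from 3.22 to 2.95 for Scd2. Per kilobase of exon, the level of Scd2 was 9.03 ± 1.08 times that of Scd1 in Veh (SD, n = 3), 5.79 ± 0.867 times in LPS (SD, n = 3) and 9.53 ± 0.317 times in T0+LPS (SD, n = 3). The LPS ratios of 4.79, 6.29 and 6.30 lay below all ratios of the other groups. An exact 2-sided permutation test of 3 against 3 libraries gave p = 0.1 for LPS against Veh and for T0+LPS against LPS, the smallest p this design allows, and p = 0.5 for T0+LPS against Veh. These 3 tests were not adjusted. The paralogs are similar in sequence, and how reads that fit both were handled is not given in the sources used here. The other members of the mouse Scd cluster were near the floor, with 8 reads for Scd3 and 33 for Scd4 over the 9 libraries, and were not tested.

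The polyunsaturated desaturases did not follow the Scd genes. Fads1, the delta-5 desaturase, had 179, 186 and 178 CPM in Veh, 123, 128 and 117 CPM in LPS, and 127, 118 and 121 CPM in T0+LPS. All 6 stimulated libraries lay below the 3 Veh libraries, and the 2 stimulated groups overlapped. LPS libraries were at 0.678 of the Veh level (log2 fold change -0.56, standard error 0.05, adjusted p = 2.4e-08 from edgeR). The fold of T0+LPS over LPS was 0.998, with a 95% interval of 0.929 to 1.07, so a change of the size seen for Elovl5 lies outside it. Fads2, the delta-6 desaturase, had 4.33, 4.83 and 4.52 CPM in Veh, 5.15, 5.46 and 5.56 CPM in LPS, and 4.42, 4.74 and 6.24 CPM in T0+LPS. The LPS libraries lay above Veh without passing the test (adjusted p = 0.13 from edgeR), and this direction turned to a log2 fold change of -0.03 under library totals. T0+LPS overlapped both groups, with a fold over LPS of 0.954 (95% interval 0.764 to 1.19).

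**Figure D2:**
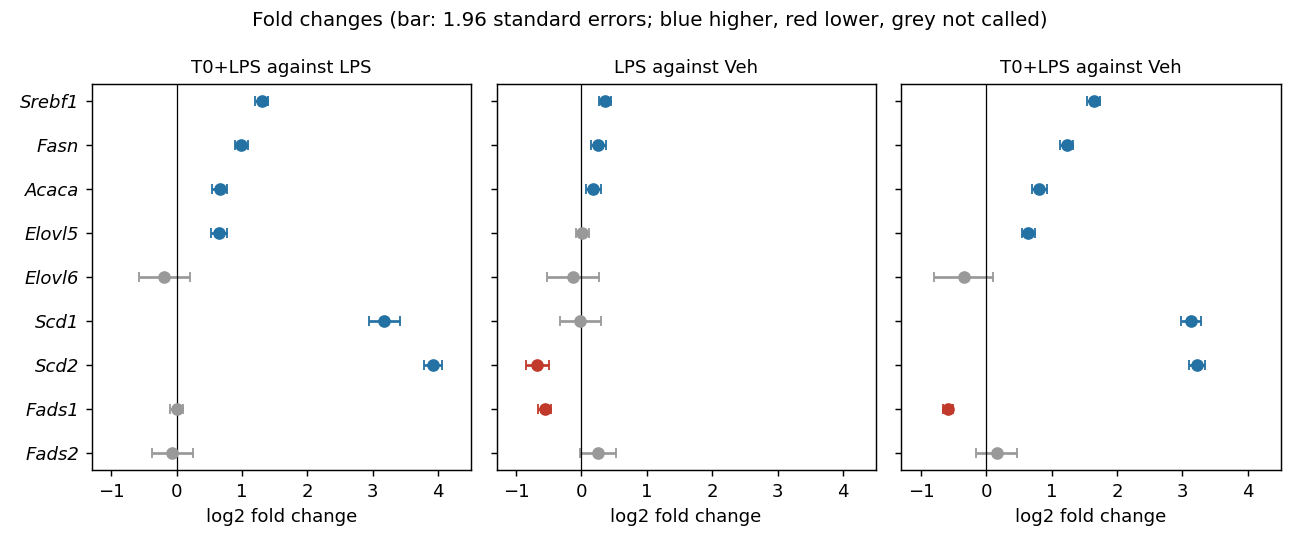
Log2 fold change (horizontal axis) of the 9 measured genes in each comparison with TMM scaling. Bars are 95% intervals, blue is called higher, red lower and grey not called at an adjusted p of 0.05. The 6 genes that rose with T0 sit right of 0 in the left and right panels, and Scd2 and Fads1 sit left of 0 in LPS against Veh, where the small rises of Fasn and Acaca turn to -0.02 and -0.11 under library totals.

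In LPS against Veh, 3 of the 9 tested genes were called higher (Srebf1, Fasn and Acaca) and 2 lower (Scd2 and Fads1), where 32.9% of all 9559 genes tested were called higher, 31.2% lower and 64.1% either way. Groups lay apart for 4 genes above Veh and 2 below, against 33.7% of all genes in each direction and 67.4% either way. The shares of the 9 genes are near this background. Of these 5 calls, only the 2 decreases held under library totals, with log2 fold changes of -0.97 for Scd2 and -0.84 for Fads1. With that scaling the median log2 fold change of all genes moved from 0.00 to -0.28, no member was called higher, Fasn and Acaca turned to -0.02 and -0.11, and Elovl5 was called lower (log2 fold change -0.27, adjusted p = 0.00017 from edgeR). The Acaca call was also lost with DESeq2 and without a filter (adjusted p = 0.062 in each), and without Veh replicate 3 (0.11), LPS replicate 1 (0.055) or LPS replicate 3 (0.054).

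In T0+LPS against Veh, the same 6 genes stood above Veh and Fads1 stood below it, where 32.4% of all 9636 genes were called higher, 32.9% lower and 65.3% either way. Groups lay apart for these 6 and for Fads1, against 35.6% of genes above, 33.8% below and 69.4% either way. The folds over Veh were 3.12 for Srebf1, 2.35 for Fasn, 1.76 for Acaca and 1.55 for Elovl5, and all 6 increases kept direction and call under library totals. Fads1 was at 0.665 of its Veh level (95% interval 0.628 to 0.703). Each pair of comparisons shares 1 group of libraries, so their values are not independent. Elovl6, with a log2 fold change of -0.35, was not called, and it passed the test under library totals (-0.61) and without Veh replicate 3 (-0.55) or T0+LPS replicate 2 (-0.60).

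Levels were compared between genes per kilobase of the exon bases that no other row shares. In Veh, Fads1 was highest at 52.3 ± 1.33 CPM per kb (SD, n = 3), followed by Elovl5 at 45.8 ± 2.44 and Srebf1 at 31.9 ± 2.18. Scd2 and Fasn came next at 12.1 ± 1.37 and 10.5 ± 0.952. Their ranges of 10.9 to 13.6 and 9.50 to 11.4 overlapped, so the ranges do not resolve their order. Within each Veh library, Scd2 lay above Fasn per kilobase. Acaca (4.03), Fads2 (3.02), Scd1 (1.34) and Elovl6 (0.803) followed, each apart from its neighbour. In LPS the order was Elovl5 (46.0), Srebf1 (40.9), Fads1 (35.4), Fasn (12.5), Scd2 (7.49), Acaca (4.55), Fads2 (3.57), Scd1 (1.32) and Elovl6 (0.735), with no overlap between neighbours. In T0+LPS, Scd2 moved to the top at 114 ± 5.69 CPM per kb (SD, n = 3), above Srebf1 at 101 ± 2.55, Elovl5 at 72.2 ± 4.49, Fads1 at 35.3 ± 1.36, Fasn at 25.0 ± 0.967 and Scd1 at 12.0 ± 0.861. Acaca (7.19), Fads2 (3.40) and Elovl6 (0.641) closed the order, again with no overlap between neighbours.

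Summed over the 9 genes, the level was 162 ± 7.94 CPM per kb in Veh, 153 ± 2.6 in LPS and 370 ± 13.7 in T0+LPS (SD, n = 3 in each). The share of Scd2 in this sum was 7.46% ± 0.616 in Veh, 4.91% ± 0.533 in LPS and 30.7% ± 0.421 in T0+LPS. That of Fads1 was 32.4% ± 0.850, 23.2% ± 0.871 and 9.53% ± 0.163 in the same order, and that of Srebf1 was 19.7% ± 0.383, 26.8% ± 0.931 and 27.3% ± 0.570.

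**Figure D3:**
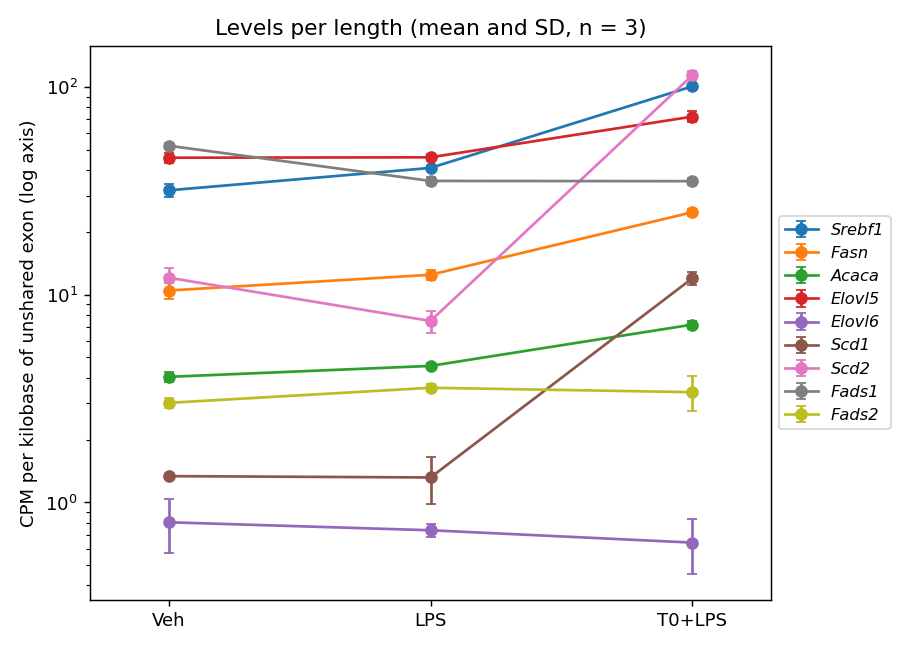
Mean level per kilobase of unshared exon (log axis, CPM per kb) of the 9 measured genes in the 3 groups, with SD bars over 3 libraries and lines joining the same gene. Scd2 goes from 7.49 in LPS to 114 in T0+LPS, crossing Fasn, Fads1, Elovl5 and Srebf1, and Fads1 stays at 35.3 to 35.4 in both stimulated groups.

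The likeness of patterns was measured as the root mean square difference of log2 CPM over the 9 libraries after centring each gene, among 7299 genes with a mean of at least 5 CPM. It uses the values described above and is a description. Outside the 10 genes, the nearest to Srebf1 were Lipn, a lipase gene (0.212), Mylip, an LXR target that degrades the LDL receptor (0.250), and Id2, an inhibitor of helix-loop-helix factors (0.260). Fasn was nearer to Srebf1 (0.185) than these, Acaca was at 0.360 and Scd2 at 1.08. Lipn went from 4.28 ± 0.501 CPM in LPS to 9.92 ± 1.44 CPM in T0+LPS (SD, n = 3). For Scd2, Scd1 was near (0.358), and the nearest other genes were Abcg1 (1.04), Abca1 (1.08) and Lipn (1.16), all at a distance about as large as that of Srebf1.

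The rest of the pathway was described by 9 lists of 72 genes in all, of which 47 were tested in T0+LPS against LPS. Of these, 2 were called higher (Cyb5a and Lpcat3) and 2 lower (Acsl1 and Cpt1a), against 1.35% and 1.83% of all genes. Lpcat3, which places polyunsaturated chains into phospholipids and is a known LXR target, went from 59.9, 64.4 and 62.1 CPM in LPS to 122, 113 and 120 CPM in T0+LPS, a fold of 1.91. The other 3 changes were small. Cyb5a, an electron donor of desaturases, went from 172 ± 5.93 to 201 ± 10.2 CPM (SD, n = 3), a fold of 1.16, and lost its call without either of T0+LPS replicates 1 and 2 and without LPS replicate 1 (highest adjusted p 0.17 from edgeR). Acsl1, an acyl-CoA synthetase, went from 158 ± 2.1 to 132 ± 14.3 CPM (SD, n = 3), a fold of 0.833, and lost its call in 5 of 6 fits without 1 library (highest adjusted p 0.16 from edgeR). Cpt1a, which admits fatty acids into mitochondria for oxidation, went from 149, 153 and 159 CPM to 127, 133 and 128 CPM, a fold of 0.842, and missed the threshold once T0+LPS replicate 3 was left out (adjusted p = 0.052 from edgeR).

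No gene passed the test with T0 among the 5 tested genes of acetyl-CoA and NADPH supply, the 4 of other carboxylase and lipogenic regulators, the 4 of the elongation cycle, or the 4 of SREBP processing. The medians of their log2 fold changes were 0.06, 0.03, 0.00 and -0.06. The 4 called genes came 1 each from the other desaturases and electron donors (5 tested), the acyl-CoA synthetases (5), glycerolipid synthesis and storage (8) and fatty acid oxidation (11). Slc25a1, the carrier that exports citrate for Acly, had a fold of 0.997, and Srebf2, which encodes the sterol-regulating paralog of SREBP1, had 401 ± 8.99 CPM in LPS and 375 ± 7.96 CPM in T0+LPS (SD, n = 3, adjusted p = 0.33 from edgeR). Insig1, which retains SREBP precursors in the endoplasmic reticulum, was at 200 ± 18.4 and 208 ± 9.47 CPM (SD, n = 3). Gpam, the first enzyme of glycerolipid synthesis, had a fold of 1.25 that did not pass (adjusted p = 0.29 from edgeR).

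LPS itself moved several of these genes. Against Veh, 16 of 47 were called higher and 15 lower, which is close to the background of 32.9% and 31.2%, and with library totals the counts were 7 and 30. With TMM, Srebf2 and Insig1 rose 2.15-fold and 2.45-fold, and Acsl1 and Acsl5 rose 2.45-fold and 1.74-fold. These genes rose under each of the 3 scalings, but by less under library totals. There the median log2 fold change went from 0.68 to 0.40 for SREBP processing and from 0.63 to 0.35 for the acyl-CoA synthetases. Of the 11 tested genes of fatty acid oxidation, 6 fell and 1 rose (Acadl), with a median log2 fold change of -0.19, and with library totals 10 fell and 1 rose, with a median of -0.47. Cpt1a fell to 0.700 and Cpt2 to 0.755 of the Veh level. Plin2, the coat protein of lipid droplets, fell from 1530 ± 57.5 to 952 ± 24.7 CPM (SD, n = 3), and Gpam fell to 0.555 of its Veh level. In the elongation cycle, Hsd17b12 and Ptplb (now Hacd2) rose 1.34-fold and 1.42-fold, which under library totals left log2 fold changes of 0.14 and 0.22. The counts per list depended on the scaling. The elongation cycle had 3 genes higher and 1 lower with TMM and 2 and 1 with library totals, and the acyl-CoA synthetases had 2 and 1 with TMM and 2 and 2 with library totals. Supply had 2 higher and 2 lower with TMM and 0 and 4 with library totals, and the other desaturases had 2 and 2 with TMM and 0 and 3 with library totals. Glycerolipid synthesis and storage went from 2 higher and 3 lower with TMM to 0 and 6, the carboxylase regulators from 2 and 0 to 0 and 3, and SREBP processing from 2 and 0 to 2 and 1. Small rises of Slc25a1 (1.18-fold), Cyb5b (1.21-fold), Degs1 (1.19-fold), Stk11 (1.12-fold) and Prkaa1 (1.09-fold) turned to log2 fold changes between -0.16 and -0.01 under library totals, and a decrease of Acss2 to 0.799 was lost with DESeq2 (adjusted p = 0.066), in the fit to all 9 libraries (0.075) and in 3 of 6 edgeR fits without 1 library.

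**Figure D4:**
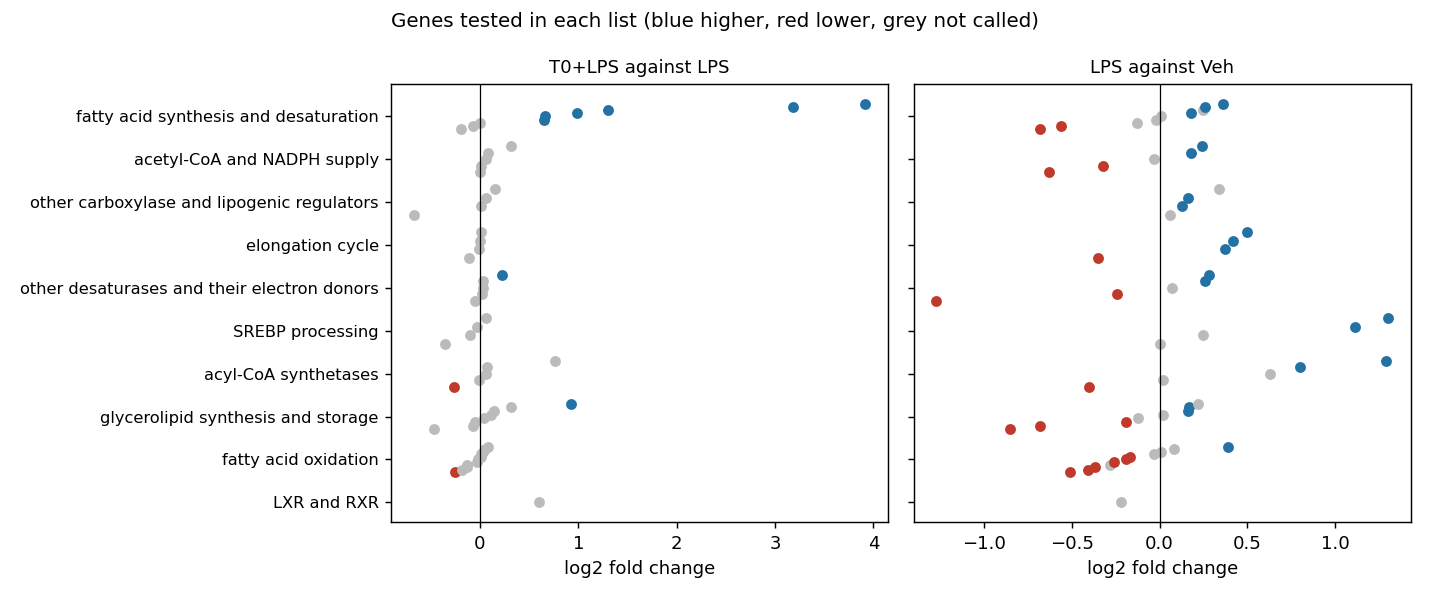
Log2 fold change (horizontal axes, different ranges) with TMM scaling of each tested gene of the fatty acid synthesis and desaturation genes and of 9 other lists, in T0+LPS against LPS (left) and LPS against Veh (right). Blue points were called higher, red lower and grey neither at an adjusted p of 0.05. With T0, 6 genes of the top row and 4 of the 47 other genes are coloured, while with LPS 31 of 47 are, and under library totals 7 were higher and 30 lower there.

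The receptor itself was poorly measured. Nr1h3, which encodes LXRα, had 0.731 ± 0.238 CPM in LPS and 1.12 ± 0.0566 CPM in T0+LPS (SD, n = 3), a log2 fold change of 0.60 with a standard error of 0.34 that did not pass (adjusted p = 0.48 from edgeR), although the groups did not overlap. Against Veh, at 0.407 ± 0.123 CPM (SD, n = 3), the fold of T0+LPS was 2.66 (adjusted p = 0.0019 from edgeR). Nr1h3 passed the filter on low counts only in the comparisons with T0+LPS, where its level was highest, and not in LPS against Veh. This fold and its p-value are therefore not read as a result. Nr1h3 held 97 reads over the 9 libraries, and its rows share all but 315 of 2036 exon bases. Its CPM is therefore not read as the level of the gene. Rxra held 101 reads on 459 unshared of 5466 exon bases. Nr1h2, which encodes LXRβ, had 2 reads over the 9 libraries on 4 unshared bases, and Rxrb had none on 0 unshared bases.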

How the data were processed

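RNA-seq libraries of BMDMs were compared in 3 groups of 3, as titled in the labels. Per the labels and the study's methods, libraries were made from polyadenylated RNA, and the authors used cutadapt for trimming, HISAT2 for alignment to mm10 transcripts and featureCounts for counting on RefSeq transcripts. The deposited values are whole read counts, not normalized. Their tables of DESeq2 p-values and RPKM ratios, and a list of gene names for LPS against Veh, hold their own comparisons and were not used. The treatment of strand and of overlapping rows in counting is not given in the sources used here.

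Rows of 1 symbol were summed. Each pair of groups (6 libraries) was tested by quasi-likelihood in edgeR 4.0.16 (R 4.3.3), with filterByExpr, TMM factors and Benjamini-Hochberg adjustment over all genes tested, called at 0.05. Standard errors are the log2 fold change over the root of the F statistic, and 95% intervals are normal intervals from them. Levels use TMM factors over all 9 libraries, without a pseudocount. Log2 CPM used a prior count of 2. Alternatives were DESeq2 1.42.0, limma-voom (limma 3.58.1), other scalings, no filter, single rows, all 9 libraries, a replicate block and leaving out each library. No replicate pair was as close as sampling noise alone would give (chi-square per degree of freedom 2.72 to 6.93). Genes named beside the 10 were the list genes called in T0+LPS against LPS, the 2 with the largest LPS change per list at a mean of at least 5 CPM, and the 3 nearest in pattern to Scd2 and Srebf1. Other genes named, such as Scd3, Scd4, Acadl, the receptors and those of the closing section, were chosen after their values were seen, and Abca1 and Abcg1 as a check of the T0 label. The 10 genes and the lists were chosen with earlier results of these data known. Older symbols were matched through RefSeq synonyms.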

Additional observations from a re-analysis of the deposited data

How the results depend on the processing

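For T0+LPS against LPS, 6 of the genes were higher and none was lower in every alternative, and their log2 fold changes without 1 library stayed within 3.83 to 3.98 for Scd2, 3.03 to 3.38 for Scd1, 1.28 to 1.32 for Srebf1, 0.95 to 1.03 for Fasn, 0.62 to 0.68 for Acaca and 0.62 to 0.70 for Elovl5. The 126 genes called higher and 171 called lower over the whole table became 225 and 285 without a filter, and 59 to 167 and 82 to 191 without 1 library, lowest without LPS replicate 1. Fads1 and Fads2 sat near 0 and changed sign, to 0.00 without a filter, 0.03 without LPS replicate 2, 0.02 without T0+LPS replicate 2 and 0.00 without T0+LPS replicate 3 for Fads1, and to 0.03 without T0+LPS replicate 1 for Fads2, whose range without 1 library was -0.23 to 0.03.

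For LPS against Veh, library totals left 0 members higher and gave 1694 genes higher and 5411 lower, in place of 3148 and 2981, with 76.2% against 48.6% of calls in the lower direction. Members that changed sign there were Fasn (-0.02), Acaca (-0.11), Elovl5 (-0.27) and Fads2 (-0.03). Elovl5 was also at -0.01 without a filter, -0.03 without Veh replicate 3 and -0.02 without LPS replicate 1, Elovl6 ranged from -0.34 to 0.11 (without Veh replicate 1), and Scd1 from -0.22 to 0.13 (without LPS replicate 3), with 0.00 without LPS replicate 2. Without 1 library, 2 to 3 members were higher and 2 were lower.

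For T0+LPS against Veh, library totals gave 2 members lower, with 1659 genes higher and 5523 lower in place of 3121 and 3172 (76.9% against 50.4% of calls), and Fads2 at -0.11. Without 1 library, 6 members were higher and 1 to 2 lower. The causes of these moves were not tested.

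No pairing of the libraries by replicate number was detected. Each deviation is from a mean of 3 libraries and holds sampling noise, so a weak pairing could be missed. Correlations of same-numbered deviations were 0.05, -0.01 and 0.00 for T0+LPS and LPS, 0.03, 0.04 and -0.01 for LPS and Veh, and 0.03, -0.01 and -0.01 for T0+LPS and Veh. With the replicate block, 6 members were higher and 0 lower in T0+LPS against LPS (155 and 230 genes in all), 3 and 2 in LPS against Veh, and 6 and 1 in T0+LPS against Veh. Depth limits Elovl6, Fads2 and Scd1 in Veh and LPS, at under 9 CPM each.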

Other observations

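Of the 72 listed pathway genes, 25 were not tested in T0+LPS against LPS, and 9 of these rest on under 200 exon bases that no other row shares. Among them were Mid1ip1, an activator of acetyl-CoA carboxylase (3 unshared bases, 2 reads over 9 libraries), Elovl1, an elongase of very long chains (130 bases, 55 reads), and Acsl3 (0 bases, 0 reads). Their levels were not read from this table. Others had long unshared stretches and few reads. Acacb, the mitochondrial carboxylase, had 70 reads on 8485 bases, Elovl7 63 on 5437, Elovl2 14 on 3837, Mlxipl, which encodes the glucose-responsive factor ChREBP, 6 on 3649, and Thrsp 0 on 1038. Scd4 had 33 reads on 3072 bases, with levels of 0.107, 0.132 and 0.174 CPM in Veh, 0.0793, 0 and 0.0772 CPM in LPS, and 0.228, 0.627 and 0.832 CPM in T0+LPS. The T0+LPS libraries lay above the rest for Scd4, on counts too low to be tested. The lowest of them, at 0.228 CPM, was close to the highest Veh library, at 0.174 CPM. Scd3, with 8 reads over the 9 libraries, had 0.305, 0 and 0.277 CPM in T0+LPS and 0 in every Veh and LPS library.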
